A study of Mus musculus with 2 samples.

Results

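The thymus gene set described here holds 32 mouse genes, 28 of the T cell lineage and 4 of thymic epithelium, out of 42462 annotated genes measured in total RNA of embryonic hearts. The genes were listed by name because thymus markers differ between the libraries of this series, so the difference between the libraries chose them and is given as a description, with no test. All 32 matched a gene row in both libraries. The series holds 2 libraries of 1 group, replicate 2 and replicate 1, each from a pool of B6NCrl hearts at embryonic day 16.5 with male and female embryos together. The labels state that the replicate 2 pool came from 41 embryos and give no number for replicate 1, and they name no allele or agent for either pool. Both libraries started from 10 ng of RNA above 200 nt with ERCC spike-in RNAs added. With 1 group no conditions are compared, and an exact two-sided sign-flip test over 2 libraries cannot go below p = 0.5, so every difference is a statement about these libraries.

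The thymus lies in the chest just above the heart and is the organ in which T cells form. Its epithelial cells draw in blood-borne progenitors with chemokines, and the progenitors cut and join gene segments into T cell receptors, first at the beta, gamma and delta loci and then at the alpha locus. A finished beta chain pairs with an invariant partner, pre-T alpha, and with the CD3 chains, after which thymocytes switch on CD4 and CD8 and are tested against peptides on epithelial cells. Several genes of the set are also used outside the thymus, such as Thy1 in neurons, Bcl11b in neurons and skin, and Lef1 and Tcf7 in tissues that respond to Wnt signals.

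The gene tables held 40360242 estimated counts in replicate 2 and 37160624 in replicate 1. The share of spike-ins was 3.41% in replicate 2 and 1.62% in replicate 1. The 10 heart muscle markers, led by Actc1, Tnnt2 and Myl2, summed to 43287 TPM (a transcript level per length) in replicate 2 and 42843 TPM in replicate 1, so both pools carry the markers of the labelled tissue. Their median log2 ratio was 0.01, and -1.02 when scaled to spike-ins. Markers of other tissues moved between the pools: 7 of 8 tested lung epithelial genes were lower in replicate 2, summing over the list to 113 TPM in replicate 2 and 976 TPM in replicate 1, and none was higher. Their part in the results below was not tested.

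All 32 genes had reads in both libraries. At 1 TPM or more stood 31 genes in replicate 2 and 25 in replicate 1, the 25 being shared. Summed over the set, the level was 992 TPM in replicate 2 and 395 TPM in replicate 1, or 0.107% and 0.0409% of the TPM of annotated genes in replicate 2 and replicate 1. A few genes carried most of this level: the 5 highest held 59.6% of it in replicate 2 and 58.2% in replicate 1, and the median gene of the set stood at 10.3 TPM in replicate 2 and 4.44 TPM in replicate 1. By level, Cd3e ranked 2838 among the 42462 annotated genes in replicate 2 and 6387 in replicate 1. In bulk RNA, fewer cells of a type and less RNA per cell cannot be told apart.

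**Figure D1:**
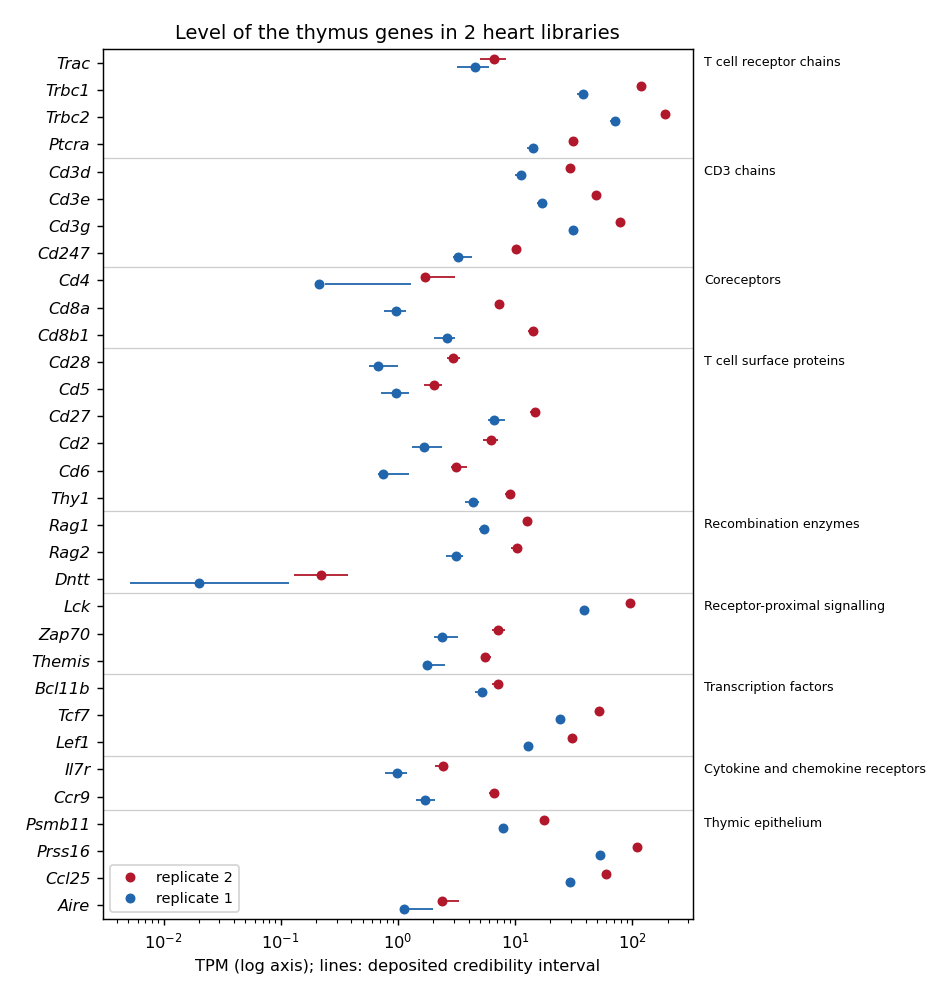
Level of each of the 32 genes in TPM (log axis) in replicate 2 and replicate 1, grouped by role, with lines for the credibility interval deposited with each value. The replicate 2 point lies right of the replicate 1 point for every gene, with the pair closest together for Trac and Bcl11b and widest apart for the coreceptor genes and Dntt.

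Between the libraries the whole set stood higher in replicate 2. Of the 32 genes, 30 had a mean of at least 1 TPM, and their median log2 ratio of TPM + 0.1, replicate 2 over replicate 1, was 1.33, with a range from 0.45 for Bcl11b to 2.81 for Cd8a. The same median was -0.06 over 12987 protein-coding genes. Of 28 genes with a mean of at least 100 estimated counts, 27 were over 2-fold higher in replicate 2 with deposited credibility intervals that did not overlap, and 0 were lower. By the same rule 2.43% of all annotated genes and 1.27% of protein-coding genes were higher in replicate 2, and 0.793% and 0.813% were lower; since the genes were picked for this difference, nothing is read from their count. The exception among the 28 was Bcl11b. The spike-ins give another scale: scaled to their total, the median log2 ratio of the set was 0.28, that of all genes was -1.09, and 5 genes of the set (Trac, Bcl11b, Prss16, Ccl25 and Aire) fell below 0. Against the other count scalings this lowers the ratio of every gene by the same amount, so by construction it leaves the distance of the set from other genes as it is.

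**Figure D2:**
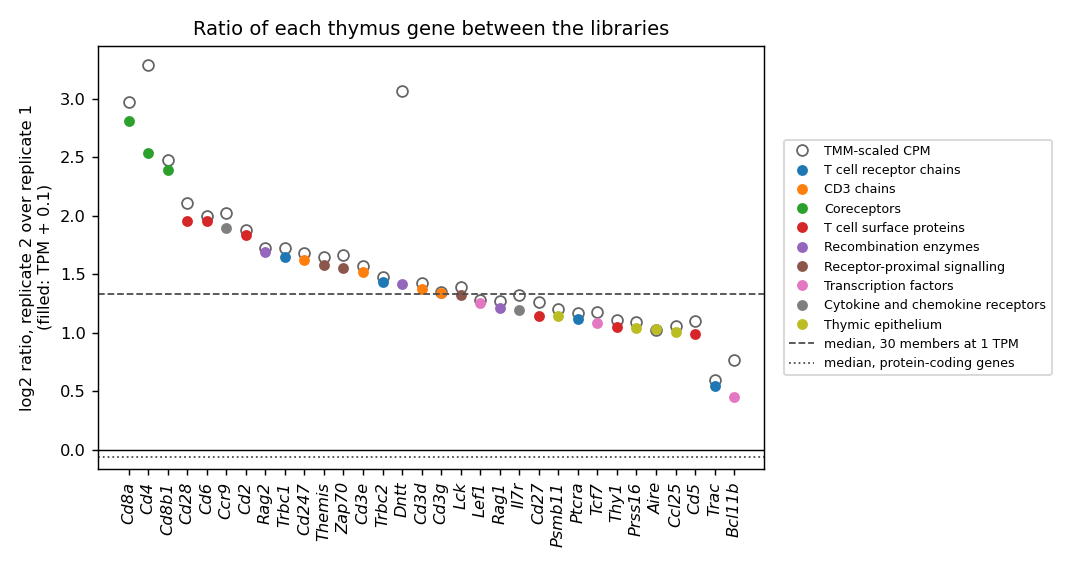
Log2 ratio of replicate 2 over replicate 1 for each gene of the set, sorted, from TPM + 0.1 (filled, coloured by role) and from TMM-scaled CPM (open circles), with dashed and dotted lines at the medians of the set (1.33) and of protein-coding genes (-0.06). Cd8a, Cd4 and Cd8b1 lead and Trac and Bcl11b close the order, and scaling to spike-ins instead puts 5 genes below 0.

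The T cell receptor chains were led by the constant genes of the beta locus. Trbc2, whose constant region is used by rearrangements to its own joining cluster, had 189.9 TPM in replicate 2 and 70.4 TPM in replicate 1. Trbc1, its upstream duplicate, had 118 TPM in replicate 2 and 37.6 TPM in replicate 1, a log2 ratio of 1.64. These were the highest and second-highest of the set in replicate 2, and they made up 31.0% of the set's summed TPM in replicate 2 and 27.3% in replicate 1. Ptcra, the pre-T alpha partner of the beta chain, had 30.9 TPM in replicate 2 and 14.2 TPM in replicate 1, a log2 ratio of 1.12. Trac, the constant gene of the alpha locus, had 6.66 TPM in replicate 2 and 4.53 TPM in replicate 1, from 62 and 38 counts; its log2 ratio of 0.55 turned to -0.50 when scaled to spike-ins. Per length, Trac stood far below the beta constant genes in both libraries: their log2 ratio was -5.51 in replicate 2 and -4.55 in replicate 1, a mean of -5.03 ± 0.68 (SD, n = 2). Ptcra exceeded Trac by 4.59-fold in replicate 2 and 3.09-fold in replicate 1.

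The beta constant genes are near-identical copies, and their counts can only be told apart where their transcripts differ. Over 521 aligned bases, Trbc1-202 and Trbc2-201 were the same at 498 and differed at 23, an identity of 95.6%. Of windows of 100 bases, 28.7% of those in Trbc1-202 and 30.9% of those in Trbc2-201 also occurred in the other transcript, so the split between Trbc1 and Trbc2 is less sure than their sum. The sum was 308 TPM in replicate 2 and 108 TPM in replicate 1. The densest run of differences is shown, from base 459 to base 518 of each transcript (GRCm38, plus strand of chromosome 6, genes at chr6:41538218-41539881 and chr6:41546730-41548352), with the 11 differing bases in capitals.
Trbc1: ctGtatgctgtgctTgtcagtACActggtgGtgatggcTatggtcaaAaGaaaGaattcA
Trbc2: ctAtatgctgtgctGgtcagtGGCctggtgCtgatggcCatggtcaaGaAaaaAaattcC

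Reads on the variable segments of the beta locus spread over the whole locus. Of 21 Trb variable genes, 20 had a count in each library, summing to 971 counts in replicate 2 and 222 in replicate 1, and all 20 took a larger share of annotated counts in replicate 2. Trbv13-2 led, with 124 counts in replicate 2 and 37 in replicate 1, which is 12.8% of the Trb variable counts in replicate 2 and 16.7% in replicate 1. Trbv19 had 95 counts in replicate 2 and 15 in replicate 1, and Trbv12-2 had 84 counts in replicate 2 and 20 in replicate 1. No other Trb variable gene than Trbv13-2 held over 10% of these counts in either library. Variable counts came to 17.4% of the constant-region counts of the locus in replicate 2 and 12.8% in replicate 1. The 98 rows of diversity and joining segments of receptor and antibody loci, of 10 to 66 bases, had an effective length of 0 in the deposited tables, so their 0 counts carry no information.

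**Figure D3:**
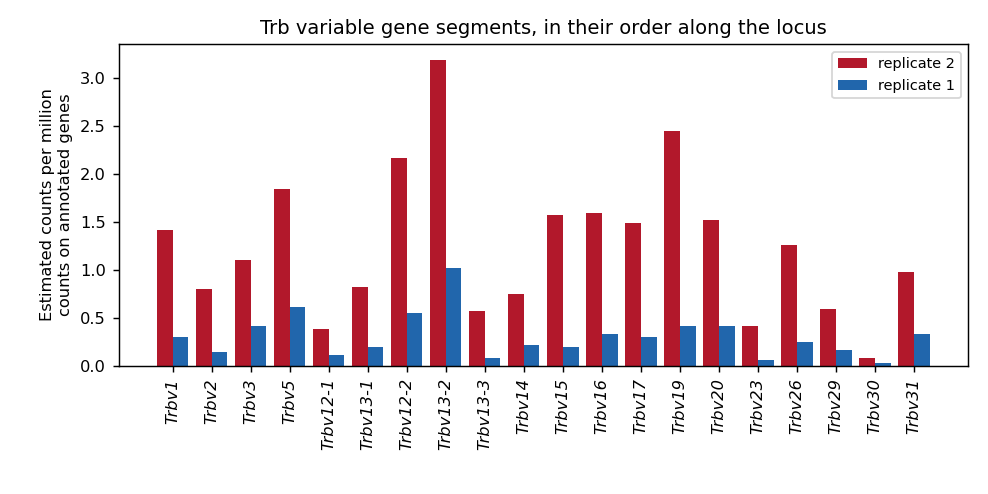
Estimated counts of each Trb variable gene, scaled to the counts on annotated genes, in replicate 2 and replicate 1, ordered by position along the locus. Each of the 20 genes is higher in replicate 2, and Trbv13-2 is the highest in both libraries.

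The other receptor loci differed in how far their variable segments were seen. At the alpha locus, 13 of 98 variable rows had a count in replicate 2 and 6 in replicate 1, for 35 counts in replicate 2 and 14 in replicate 1, beside 62 and 38 counts on Trac in replicate 2 and replicate 1. At the gamma locus, whose chains pair with delta chains in another T cell lineage, the 4 constant genes held 1548 counts in replicate 2 and 607 in replicate 1, and the variable genes 422 and 166, led by Trgv2 with 245 in replicate 2 and 106 in replicate 1. Trdv4, a variable gene of the delta locus, had 57 counts in replicate 2 and 27 in replicate 1. Per length, the beta constant genes exceeded the gamma constant genes by 2.46-fold in replicate 2 and 1.98-fold in replicate 1. Antibody loci showed another pattern: Ighm, the mu constant gene, had 871 counts in replicate 2 and 231 in replicate 1, but only 2 counts fell on the 113 heavy-chain variable rows in replicate 2 and 0 in replicate 1.

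The CD3 chains, which carry the receptor's signal into the cell, moved close together. Cd3g had 78.5 TPM in replicate 2 and 31.0 TPM in replicate 1, a log2 ratio of 1.34. Cd3e had 48.7 TPM in replicate 2 and 16.9 TPM in replicate 1, a log2 ratio of 1.52. Cd3d had 29.4 TPM in replicate 2 and 11.3 TPM in replicate 1, a log2 ratio of 1.37. The order Cd3g, Cd3e, Cd3d held in both libraries, with Cd3g over Cd3d at 2.67-fold in replicate 2 and 2.73-fold in replicate 1. Cd247, the zeta chain encoded on another chromosome, was lower per length, at 10.2 TPM in replicate 2 and 3.24 TPM in replicate 1, with a log2 ratio of 1.62. Its level against Cd3e was 0.211-fold in replicate 2 and 0.197-fold in replicate 1. Some Cd247 reads may be shared with the overlapping gene Gm16565, which holds 6.46% of its windows of 100 bases, and Pou2f1 lies across it on the other strand.

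Cd3g and Cd3d are transcribed away from each other, their gene bodies 1354 bases apart, and Cd3e lies 11400 bases beyond Cd3d. Their promoter windows, 250 bases before to 50 after the RefSeq start on GRCm38.p6, are shown because these genes are neighbours. Their similar ratios are not particular to neighbours: Lck, on chromosome 4, had a log2 ratio of 1.32. Rag1 and Rag2, also neighbours, differed more, at 1.21 and 1.69. Capitals mark matches on either strand to the ETS motif AGGAAG, the E-box motif CAGNTG, the TCF/LEF motif CTTTGA, the motif AGATAA of GATA factors and the RUNX motif TGTGGT. The windows are chr9:44980382-44980681 (minus strand) for Cd3g, chr9:44981536-44981835 (plus strand) for Cd3d and chr9:45009562-45009861 (minus strand) for Cd3e.
Cd3g: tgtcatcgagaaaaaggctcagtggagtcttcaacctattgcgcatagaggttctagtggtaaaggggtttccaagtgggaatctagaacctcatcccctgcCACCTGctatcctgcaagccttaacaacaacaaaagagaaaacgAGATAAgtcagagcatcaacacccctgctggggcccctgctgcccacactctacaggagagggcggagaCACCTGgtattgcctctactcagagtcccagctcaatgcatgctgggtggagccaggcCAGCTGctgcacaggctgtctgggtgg
Cd3d: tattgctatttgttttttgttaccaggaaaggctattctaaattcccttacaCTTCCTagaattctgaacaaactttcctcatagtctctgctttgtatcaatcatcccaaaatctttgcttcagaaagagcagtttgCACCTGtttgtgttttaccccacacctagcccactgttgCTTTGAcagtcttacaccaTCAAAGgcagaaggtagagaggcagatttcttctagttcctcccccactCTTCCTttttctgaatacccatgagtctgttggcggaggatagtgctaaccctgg
Cd3e: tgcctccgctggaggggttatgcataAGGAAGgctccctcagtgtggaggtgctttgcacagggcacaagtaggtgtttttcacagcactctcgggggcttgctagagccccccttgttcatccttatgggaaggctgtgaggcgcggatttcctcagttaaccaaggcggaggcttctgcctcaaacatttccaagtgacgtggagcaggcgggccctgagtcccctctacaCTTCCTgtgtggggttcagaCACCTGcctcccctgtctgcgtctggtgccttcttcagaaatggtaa

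Cd3g held 3 E-box matches and 1 GATA match, Cd3d held 2 TCF/LEF, 2 ETS and 1 E-box match, and Cd3e held 2 ETS and 1 E-box match. RefSeq windows were found for 22 of the 32 genes, 31 windows in all; Trac, Trbc1, Trbc2, Cd2, Cd6, Cd8b1, Cd4, Cd28, Thy1 and Prss16 had no entry. The E-box letters stood in 24 of the 31 windows and in 51.4% of all 32851 windows. The ETS letters stood in 15 of 31 and in 35.4% of all windows, TCF/LEF in 7 and 16.0%, RUNX in 4 and 16.8%, and GATA in 3 and 11.2%. The letters TATAAA, read on the given strand, stood in 2 of 31 windows, those of Aire and Ccl25, and in 8.32% of all. A match is a description of letters and not a binding site. Windows of the set held a median of 5 CpG, against 7 over all windows, and ran from 1 to 52.

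The Ptcra window, chr17:46763663-46763962 on the minus strand, is shown because factors that bind E-boxes are known to act on Ptcra in mouse thymocytes. Its 3 E-box matches are in capitals.
Ptcra: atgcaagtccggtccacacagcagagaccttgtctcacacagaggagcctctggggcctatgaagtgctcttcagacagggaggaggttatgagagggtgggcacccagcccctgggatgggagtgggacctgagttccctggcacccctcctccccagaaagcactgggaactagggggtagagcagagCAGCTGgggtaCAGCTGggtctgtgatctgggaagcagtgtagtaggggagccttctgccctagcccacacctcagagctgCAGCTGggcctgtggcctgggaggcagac

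The coreceptor genes were among the farthest apart between the libraries. Cd8a, one chain of CD8, had 7.34 TPM in replicate 2 and 0.96 TPM in replicate 1, from 656 and 77 counts, a log2 ratio of 2.81. Cd8b1, the partner chain, had 14.2 TPM in replicate 2 and 2.61 TPM in replicate 1, from 554 and 92 counts, a log2 ratio of 2.40. Cd4, which binds class II MHC, had 1.70 TPM in replicate 2 and 0.21 TPM in replicate 1, from 152 and 14 counts, a log2 ratio of 2.54. The ratios of Cd8a and Cd8b1 lay above the highest ratio, 1.96, of the 24 other T lineage genes with a mean of 1 TPM, whose median was 1.36. The Cd4 ratio depended on the estimate, at 1.60 by posterior mean TPM and 1.16 with a pseudocount of 1 TPM. Cd8b1 and Cd8a lie 35932 bases apart on chromosome 6. Cd8a stood below Cd8b1 per length, at 0.522-fold in replicate 2 and 0.391-fold in replicate 1, although the longer Cd8a transcripts took the more counts in replicate 2. Cd4 in replicate 1 rests on few counts, and its TPM lies below its own deposited interval of 0.240 to 1.29; its mean count was under 100, so it was not among the 28 tested genes.

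The other surface proteins were between 2- and 4-fold apart or a little beyond. Cd28, a costimulatory receptor, had 2.93 TPM in replicate 2 and 0.68 TPM in replicate 1, a fold of 4.31. Cd6, an adhesion receptor, had 3.15 TPM in replicate 2 and 0.74 TPM in replicate 1, a log2 ratio of 1.95. Cd2, another adhesion receptor, had 6.21 TPM in replicate 2 and 1.67 TPM in replicate 1, a log2 ratio of 1.83. These ratios lie above the median of the set, 1.33, whereas those of Cd27, Thy1 and Cd5 lie below it. Cd27, a receptor of the TNF family, had 14.7 TPM in replicate 2 and 6.60 TPM in replicate 1, a log2 ratio of 1.15. Thy1, a lipid-anchored protein long used to mark mouse T cells, had 9.11 TPM in replicate 2 and 4.35 TPM in replicate 1, a log2 ratio of 1.05. Cd5, a restraint on receptor signalling that lies 50338 bases from Cd6, had 2.02 TPM in replicate 2 and 0.97 TPM in replicate 1, a log2 ratio of 0.99 from 118 and 51 counts.

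Of the recombination enzymes, the pair that cuts receptor genes was well measured and the one that adds bases at the joins was barely seen. Rag1 had 12.6 TPM in replicate 2 and 5.38 TPM in replicate 1, a log2 ratio of 1.21. Rag2 had 10.4 TPM in replicate 2 and 3.15 TPM in replicate 1, a log2 ratio of 1.69. Rag1 stood above Rag2 by 1.21-fold in replicate 2 and 1.69-fold in replicate 1, a log2 ratio of 0.51 ± 0.34 (SD, n = 2). The genes face each other 5752 bases apart, and B230118H07Rik overlaps both, at 47.95 TPM in replicate 2 and 52.8 TPM in replicate 1. Dntt, which encodes terminal transferase and in mice is known to come on mainly after birth, had 13 counts in replicate 2 and 1 in replicate 1. Its count ratio has an exact 95% interval from 0.87 to 9.02 on the log2 scale, which covers counting error only.

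The signalling genes next to the receptor spanned a wide range of levels. Lck, the kinase that phosphorylates CD3 chains, had 95.9 TPM in replicate 2 and 38.4 TPM in replicate 1, a log2 ratio of 1.32. Zap70, the kinase that docks on phosphorylated CD3 chains, had 7.18 TPM in replicate 2 and 2.38 TPM in replicate 1, a log2 ratio of 1.55. Themis, an adaptor of thymocyte selection, had 5.53 TPM in replicate 2 and 1.78 TPM in replicate 1, a log2 ratio of 1.58. Lck exceeded Zap70 per length by 13.2-fold in replicate 2 and 15.5-fold in replicate 1.

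Mouse Lck is known to have a promoter close to its coding exons, used in thymocytes, and another far upstream, used more in later T cells. RefSeq starts lie 15269 bases apart. Coding transcripts of the near start had 56.3 TPM in replicate 2 and 23.5 TPM in replicate 1, and the transcript of the far start had 18.8 TPM in replicate 2 and 5.95 TPM in replicate 1. The near start thus exceeded the far one by 1.58 in replicate 2 and 1.98 in replicate 1 on the log2 scale. Both windows lie on the minus strand of GRCm38.p6, chr4:129558323-129558622 for the near start and chr4:129573592-129573891 for the far one, with matches to the motif letters above in capitals.
Lck near start: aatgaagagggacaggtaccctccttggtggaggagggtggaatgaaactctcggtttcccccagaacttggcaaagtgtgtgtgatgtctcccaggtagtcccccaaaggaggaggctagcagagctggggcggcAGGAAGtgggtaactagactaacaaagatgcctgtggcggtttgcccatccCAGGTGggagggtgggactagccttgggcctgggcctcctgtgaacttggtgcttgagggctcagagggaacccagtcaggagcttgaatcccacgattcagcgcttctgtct
Lck far start: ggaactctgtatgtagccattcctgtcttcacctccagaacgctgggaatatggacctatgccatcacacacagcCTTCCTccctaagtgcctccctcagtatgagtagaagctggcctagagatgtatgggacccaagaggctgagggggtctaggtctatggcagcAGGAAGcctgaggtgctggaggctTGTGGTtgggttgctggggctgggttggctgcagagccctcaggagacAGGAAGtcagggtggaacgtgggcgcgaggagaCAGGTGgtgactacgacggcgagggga
The near window held 1 ETS and 1 E-box match, and the far window held 3 ETS, 1 E-box and 1 RUNX match.

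The transcription factors that set T cell identity stood between 7.12 and 51.6 TPM in replicate 2. Tcf7, an early factor downstream of Notch, had 51.6 TPM in replicate 2 and 24.3 TPM in replicate 1, a log2 ratio of 1.09. Lef1, its relative, had 30.7 TPM in replicate 2 and 12.8 TPM in replicate 1, a log2 ratio of 1.25. Tcf7 over Lef1 was 1.68-fold in replicate 2 and 1.89-fold in replicate 1. Bcl11b, needed for commitment to the T lineage, had 7.12 TPM in replicate 2 and 5.19 TPM in replicate 1, from 1162 and 635 counts, and its log2 ratio of 0.45 was the lowest of the set. By counts, without the correction for transcript length, the Bcl11b ratio was 0.77, and scaled to spike-ins it was -0.33. On both of these scales Trac lay below Bcl11b, at 0.59 and -0.50.

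Both receptors for external signals were low per length. Il7r, the receptor for the growth factor IL-7, had 2.40 TPM in replicate 2 and 0.99 TPM in replicate 1, a log2 ratio of 1.20. Ccr9, the receptor for the chemokine CCL25, had 6.63 TPM in replicate 2 and 1.71 TPM in replicate 1, a log2 ratio of 1.89. The overlapping opposite-strand pseudogene Gm10052 had 22.7 TPM in replicate 2 and 4.03 TPM in replicate 1. Protein-coding Lztfl1, also across Ccr9 on the opposite strand, had 30.6 TPM in replicate 2 and 27.8 TPM in replicate 1. Since strand use is not stated in the sources used here, reads of Ccr9 and of either gene cannot be told apart where they overlap. The same limit holds for Ccl25 with Elavl1 and for Cd27 with Vamp1, which lie on opposite strands.

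The 4 thymic epithelial genes showed smaller and more even ratios than the T lineage genes. Prss16, a serine protease of cortical epithelium, had 109 TPM in replicate 2 and 52.9 TPM in replicate 1, a log2 ratio of 1.04. Ccl25, the chemokine that attracts progenitors, had 59.4 TPM in replicate 2 and 29.5 TPM in replicate 1, a log2 ratio of 1.01. Psmb11, the proteasome subunit of cortical epithelium, had 17.6 TPM in replicate 2 and 7.91 TPM in replicate 1, a log2 ratio of 1.15. These 3 ratios lie close together. Aire, which lets medullary epithelium display genes of other tissues, had 2.39 TPM in replicate 2 and 1.12 TPM in replicate 1, a log2 ratio of 1.03. Their ratios lay within 1.01 to 1.15 with a median of 1.04, against a median of 1.40 over 26 T lineage genes. Of the 26, 20 lay above the highest epithelial ratio, counting Cd27, which stood at 1.1473 against 1.1471 for Psmb11. The evenness depends on the estimate for Aire. Its TPM in replicate 1 lies below its own deposited interval of 1.18 to 2.00, and by posterior mean TPM its log2 ratio was 0.78. Evenness also holds for these 4 genes only: the 24 further thymic epithelial genes averaging 1 TPM ran from -2.09 to 1.34. Under spike-in scaling Prss16 (-0.00017), Ccl25 (-0.03) and Aire (-0.06) fell below 0. Ccl25 stood above Ccr9 by 8.85-fold in replicate 2 and 16.3-fold in replicate 1. Within the epithelial genes the order Prss16, Ccl25, Psmb11, Aire held in both libraries, and Psmb11 over Prss16 was 0.162-fold in replicate 2 and 0.151-fold in replicate 1.

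Over the 30 genes with a mean of 1 TPM, the levels of the libraries tracked each other, with a Pearson r of 0.97 and a Spearman rho of 0.94 on log2 TPM. This correlation is across genes, which are not independent replicates, and shares gene length and counting between the libraries. The log2 ratios had an SD of 0.49 over these 30 genes and of 0.40 over protein-coding genes, and 13 of the 30 lay within 0.25 of the set's median.

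The leading transcript was the same in both libraries for 30 of the 32 genes, the exceptions being Bcl11b and Cd8a, and for 13 genes 1 transcript held 95% or more in both. Shares moved within some genes. Tcf7-201, from the downstream start, held 95.4% of Tcf7 in replicate 2 and 85.8% in replicate 1. Tcf7-202, whose RefSeq start lies 419 bases upstream of the other RefSeq start, had 2.40 TPM in replicate 2 and 3.45 TPM in replicate 1, and their intervals overlap, 1.63 to 3.14 in replicate 2 and 2.55 to 4.36 in replicate 1. Bcl11b-201 held 53.4% of Bcl11b in replicate 2 and 37.1% in replicate 1, and the shorter Bcl11b-202 held 20.8% in replicate 2 and 40.5% in replicate 1. The TPM intervals of Bcl11b-202 overlap, 0.02 to 2.35 in replicate 2 and 0.97 to 2.80 in replicate 1. Those of Bcl11b-201 do not, at 3.42 to 4.06 in replicate 2 and 1.66 to 2.14 in replicate 1. Noncoding transcripts, mainly retained introns and decay targets, held over 20% in both libraries for 4 genes: Cd27 (33.2% in replicate 2 and 47.6% in replicate 1), Lck, Zap70 and Aire (54.0% in replicate 2 and 83.0% in replicate 1). Aire rests on few counts, 141 in replicate 2 and 64 in replicate 1.

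**Figure D4:**
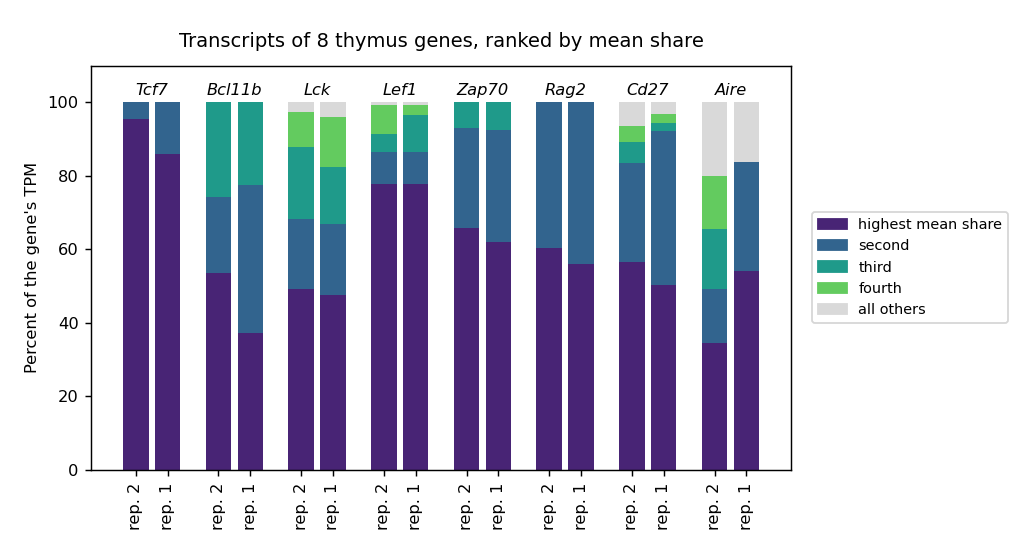
Share of each transcript in its gene's TPM for 8 genes of the set, in replicate 2 and replicate 1, with transcripts ranked by their mean share. The leading share of Tcf7 is 95.4% in replicate 2 and 85.8% in replicate 1, and the leading share of Lck is 49.2% in replicate 2 and 47.5% in replicate 1.

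Related genes outside the set were taken from lists of cell type markers. Of 33 tested further thymocyte genes, 18 were over 2-fold higher in replicate 2 with separate intervals and 0 lower, and the median log2 ratio of 37 was 1.01, which became -0.05 under spike-in scaling. The signalling scaffold Lat had 29.99 TPM in replicate 2 and 11.6 TPM in replicate 1, and the factor Ikzf1 had 12.0 TPM in replicate 2 and 3.24 TPM in replicate 1. Id3, an inhibitor of E proteins and the highest of the list, had 173 TPM in replicate 2 and 219 TPM in replicate 1. Of 24 tested further thymic epithelial genes, 6 were higher and 1 (Cldn3) lower, with a median of 0.55 that became -0.48 under spike-in scaling. Without the 2-fold rule, 18 of these 24 stood higher in replicate 2 and 6 lower. Tbata, with the highest ratio, had 70.9 TPM in replicate 2 and 27.95 TPM in replicate 1. Foxn1, the master factor of thymic epithelium, had 6.27 TPM in replicate 2 and 3.45 TPM in replicate 1. Among the 6 lower, Epcam had 18.6 TPM in replicate 2 and 23.6 TPM in replicate 1, and Ccl21a had 40.7 TPM in replicate 2 and 49.4 TPM in replicate 1. Gamma-delta and innate genes were led by Tcrg-C1, at 68.8 TPM in replicate 2 and 30.4 TPM in replicate 1, with 4 of 6 tested higher and Il17a at 0 counts in both libraries. The other tested genes were Sox13 and Zbtb16. Sox13 had 3.46 TPM in replicate 2 and 4.86 TPM in replicate 1, and Zbtb16 had 4.54 TPM in replicate 2 and 4.90 TPM in replicate 1.

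Markers of other blood cells and neighbouring tissues did not all move alike. The NK cell list had 2 genes averaging 1 TPM, Nkg7 and Klrd1, with log2 ratios of 0.93 and 1.16. Their median of 1.05 became 0.04 under spike-in scaling, and of 1 tested NK gene 0 differed by the rule. Of 9 tested macrophage and monocyte genes 0 differed by the rule. All 12 of that list summed to 186 TPM in replicate 2 and 187 TPM in replicate 1. The median log2 ratio of the 12 was 0.05, which became -0.99 under spike-in scaling. Of 2 tested B lineage genes Ighm was higher, at 19.8 TPM in replicate 2 and 5.71 TPM in replicate 1, and the other was not. The list of 14, Ighm included, summed to 39.98 TPM in replicate 2 and 22.5 TPM in replicate 1. The median log2 ratio of its 3 genes averaging 1 TPM was 0.18, which became -0.91 under spike-in scaling. Fast skeletal muscle genes had 4 of 8 tested higher, and the list of 10 summed to 87.7 TPM in replicate 2 and 44.0 TPM in replicate 1. The median log2 ratio of its 9 genes averaging 1 TPM was 0.94. It became -0.10 under the same scaling, which moves all genes alike. Of 2 tested parathyroid and thyroid genes 0 were higher and Pth, the parathyroid hormone gene, was lower, at 4.53 TPM in replicate 2 and 19.8 TPM in replicate 1. Tg, the thyroglobulin gene of the same list, had 3.76 TPM in replicate 2 and 3.15 TPM in replicate 1. The part of these tissues in the result was not tested.

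**Figure D5:**
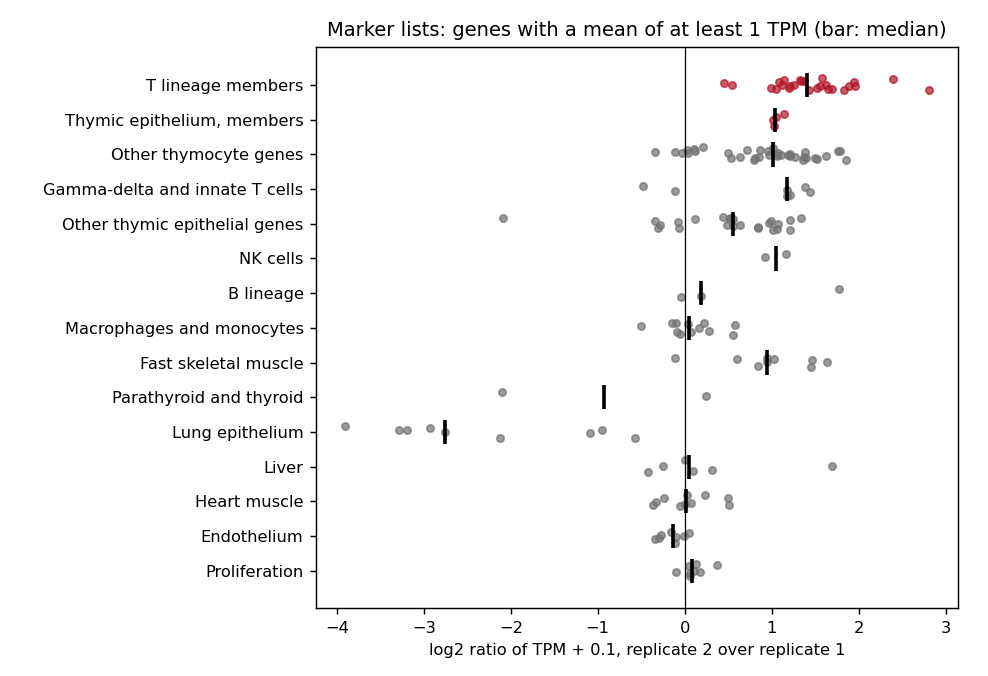
Log2 ratio of TPM + 0.1, replicate 2 over replicate 1, for the genes of each marker list that averaged 1 TPM or more, with bars at list medians. T lineage genes of the set (red, median 1.40) lie to the right, lung epithelium (median -2.76) to the left, and heart muscle (0.01) and macrophages (0.05) near 0; scaling to spike-ins moves the median of all genes to -1.09.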

How the data were processed

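Total RNA-seq was measured in 2 pooled heart libraries of 1 group, named as biological replicates in the labels, with separate biosamples but a shared donor identifier and no litter or dissection day, so the spread between them may be partly technical. RNA extraction used mirVana and the SMARTer Ultra Low manual is among the documents, per the labels' protocols. The authors quantified reads on mm10 with annotation M4, per the notes deposited with the tables. The sources used here name no aligner, quantifier or strand setting. The deposited tables hold estimated counts, not normalized, and TPM computed by the authors over all rows, spike-ins included. The deposited bounds of a credibility interval of TPM (a signal that is never negative) have no stated level. Transcript tables, also deposited, hold the percent of a gene's TPM that each transcript takes.

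Names and coordinates came from GENCODE M21 on GRCm38, by identifier without version. Ratios were log2 of TPM + 0.1, replicate 2 over replicate 1; medians used genes averaging 1 TPM or more. A gene counted as apart had a mean of at least 100 counts, a ratio over 2-fold and separate intervals. No p-value was computed. Estimated counts were rounded to whole numbers for TMM factors (edgeR 4.0.16, R 4.3.3), 1.00 in replicate 2 and 0.995 in replicate 1. Count intervals are exact (Clopper-Pearson, 95%, scipy 1.17.1), and for a length of 1500 nt a count of 0 allows up to 3, or 0.0722 TPM in replicate 2 and 0.0802 TPM in replicate 1; both cover counting error only, because PCR copies without molecular identifiers are not independent. Promoter windows are from RefSeq. Alternatives were other pseudocounts, scalings, filters and thresholds. The rule for named genes takes all 32 of the set, and in each of 13 context lists the 3 with the highest mean TPM, those apart by the rule and those at 0 counts in both libraries. The text names only some of these context genes, chosen after their values were seen. So were Foxn1, Epcam, Ccl21a, Sox13 and Zbtb16, which the rule does not take. Trdc, of the gamma-delta list, had no matching row. The genes, lists and pairs were chosen with earlier results of these data known.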

Additional observations from a re-analysis of the deposited data

How the results depend on the processing

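The median log2 ratio of the set, 1.33, was 1.23 with a pseudocount of 1 TPM, 1.37 by TMM-scaled CPM, 1.37 by median-of-ratios size factors, 1.40 by TPM over nuclear protein-coding genes, 1.23 over genes with a mean of 5 TPM and 0.28 when scaled to the ERCC spike-in total. The count of 27 genes over 2-fold higher became 3 under spike-in scaling and 2 at 4-fold, and stayed between 23 and 29 under the other alternatives. The share over all annotated genes, 2.43% higher, is given for the main rule only, so nothing is read from the counts under alternatives. The 25 genes at 1 TPM in both libraries became 15 at 5 TPM, and without replicate 1 or without replicate 2 the count ran from 25 to 31. Spike-in scaling reversed Trac (-0.50), Bcl11b (-0.33), Prss16 (-0.00017), Ccl25 (-0.031) and Aire (-0.064); all 32 ratios were above 0 under the other scalings and pseudocounts. Of 284 single values under alternatives, 223 stayed within their error, 56 moved and 5 reversed. The 223 include 15 gene pairs without replicate 1 and 15 without replicate 2. Those lie within the SD of a mean of 2 libraries by construction, so they say nothing of stability. A wide error also hides large moves: Dntt, at 1.42, counted as unmoved at 0.26 with a pseudocount of 1 TPM and at 3.06 by TMM-scaled CPM. The cause of the moves and reversals was not tested. No paired analysis was possible because there is 1 group. Depth limits Dntt and Cd4 in replicate 1, at 1 and 14 counts.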

Other observations

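Of 12296 tested protein-coding genes, 156 (1.27%) were over 2-fold higher in replicate 2 with separate intervals. The thymus set was picked for this difference, and the context lists were chosen with earlier results known. Nothing is therefore read from how many of their genes are among the 156. Of the 156, 25 belong to the thymus set and 31 to the context lists, and 72 were at least as far apart as the median of the set. Some of the others, chosen after their values were seen, are lymphocyte genes: Ptprcap had 57.5 TPM in replicate 2 and 21.4 TPM in replicate 1, Slamf6 had 17.5 TPM in replicate 2 and 6.44 TPM in replicate 1, and Il21r had 2.34 TPM in replicate 2 and 0.49 TPM in replicate 1. The farthest apart was Zg16, a lectin gene, with 231 counts in replicate 2 and 2 in replicate 1.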
